A study of Mus musculus with 816 samples.

Results

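The cultures described here were primary mouse microglia treated with interleukin 13 (IL13) alone for 24 h. They were chosen by the treatment and time in the sample labels, and they made up 9 of the 816 samples in the series. IL13 was added at 0.00005 µg/µl, and the same mass dose of interleukin 4 (IL4) was given for 24 h to 11 other cultures. A further 40 cultures received no stimulus for 24 h and are called untreated. The cells were neonatal mouse microglia bought from ScienCell and plated on poly-lysine in 96-well plates, and stimuli were added 4 days later with fresh medium. No neurons or astrocytes were added, the cells came from commercial lots, and each culture was 1 well. RNA from each well was barcoded, pooled with that of other wells, amplified and sequenced from the 3′ end of transcripts.

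IL13 and IL4 are related cytokines of type 2 immune responses. IL4 can signal through a type I receptor made of Il4ra and the common gamma chain Il2rg, or through a type II receptor made of Il4ra and Il13ra1. IL13 uses only the type II receptor, and Il13ra2 binds it as a decoy. Both receptors act through Janus kinases and the transcription factor STAT6, which drives the genes of alternative macrophage activation such as Arg1 and Retnla. The question of this comparison was which genes IL13 moved in microglia, and whether its response differed from that of IL4 at the same dose and time.

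The IL13 wells stood on 3 culture plates, called A, B and C here, with 3 wells on each. The wells of plates A and B were labelled with lot Sciencell_March15, and those of plate C with lot Sciencell_Feb15. IL4 wells numbered 6, 3 and 2 on plates A, B and C. Untreated wells numbered 6, 3 and 9 on these plates, and the other 22 stood elsewhere. Sequencing depth, recovered from the step size of low values, was 2.09 to 7.43 M reads (M, 1000000) in the IL13 wells and 1.09 to 14.99 M in the untreated wells. The 13 microglia and macrophage markers summed to 7042 to 12544 counts per 1000000 reads (CPM) in the IL13 wells and to 7390 to 15762 CPM in the untreated wells. Of the B cell markers 5 of 6, of the granulocyte and mast cell markers 8 of 10, of the T and NK cell markers 4 of 10, of the neuron markers 3 of 8, of the astrocyte markers 2 of 8 and of the oligodendrocyte markers 2 of 9 were at 0 in every IL13 well. For endothelial, fibroblast and monocyte markers it was 3, 1 and 1 of 8. Over the 40 untreated wells, in the same order of lists, the counts were 2, 4, 4, 2, 0, 1, 2, 1 and 1. More wells leave fewer genes at 0 in every well. Oligodendrocyte markers summed to 55.2 to 112 CPM and astrocyte markers to 11.2 to 27.7 CPM in the IL13 wells. Fibroblast and pericyte markers varied widely in both groups, from 16.8 to 1772 CPM with IL13 and from 0.65 to 1281 CPM without. In bulk wells, a change in the number of cells of a type and a change in RNA per cell cannot be told apart.

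Low values of the genes that define this response differed between library pools. Retnla was above 0 in all 14 untreated wells of the 4 pools that also held IL13 or IL4 wells, at 1.45 to 11.1 CPM. It was at 0 in all 26 untreated wells of the other pools. Wells of the other stimuli showed the same split, with Retnla above 0 in 188 of 191 wells (98.4%) of the 4 pools and in 7 of 123 wells (5.69%) of the 9 other pools. Its highest value among those wells was 21.2 CPM in the shared pools and 27.8 CPM in the others. Of the other stimuli, valproic acid had the highest Retnla median, at 9.91 CPM over 6 wells. The cause of this low Retnla signal was not tested. Every one of the 9 IL13 wells lay above it, since the lowest of them held 37.3 CPM. For Arg1, the wells of other stimuli reached 29.1 CPM, and the lowest IL13 well held 49.8 CPM. Genes of lower level overlapped with that background. Mgl2 was above 0 in 80.1% of the other-stimulus wells of the 4 pools and in 43.1% of those in other pools, and reached 9.37 CPM, above the lowest IL13 well at 3.21 CPM. Rnase2a was above 0 in 43.5% and 6.504% of them and reached 5.20 CPM, beside a lowest IL13 well of 2.63 CPM. Cldn11 was above 0 in 59.7% and 5.69% and reached 6.43 CPM, while the lowest IL13 well held 0.294 CPM. Chil3 showed no such split (7.85% and 8.13%), but reached 8.39 CPM in 1 of those wells. Its median over the 6 wells of valproic acid was 3.20 CPM. Both values lie above the highest IL13 well at 2.78 CPM.

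**Figure D1:**
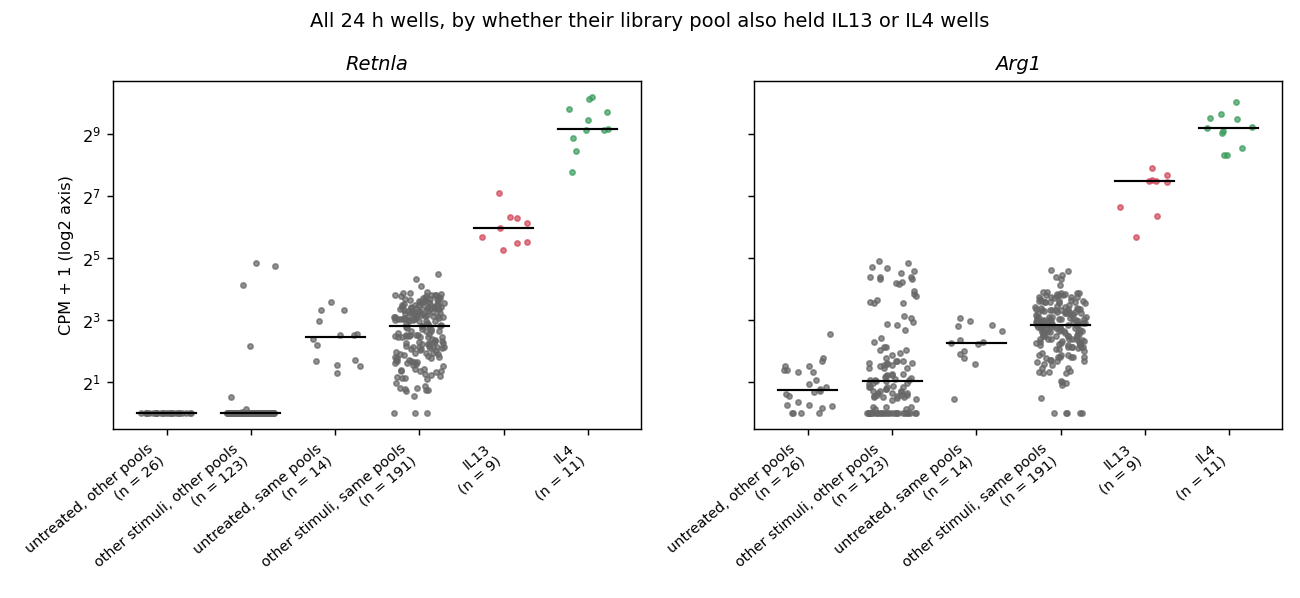
Level of Retnla and Arg1 (CPM + 1, log2 axis) in all 24 h wells, 1 point per well, with the median of each class as a line. Untreated wells and wells of other stimuli are split by whether their library pool also held IL13 or IL4 wells. Retnla was at 0 in the 26 untreated wells of other pools, at 1.45 to 11.1 CPM in the 14 that shared a pool, and at 37.3 CPM or more with IL13.

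Because of this, each comparison was fitted with 2 linear models, both with limma on all 24 h cultures and on the log2(CPM + 1) scale. One had no covariate, and the other held culture plate as a term. Values are from the model without a covariate unless another is named. The plate term does not separate library pools, and plates A and C each held wells of more than 1 pool. Log2 fold changes are followed by their standard error (SE). A gene was called at a Benjamini-Hochberg adjusted p under 0.05 and a log2 fold change of 1 or more in size. Fold changes on this scale understate the change of genes near 0 CPM.

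IL13 raised more genes than it lowered. Without a covariate, 261 of 14208 genes were called higher (1.84%) and 48 lower (0.338%). With plate in the model, 87 were higher (0.612%) and 14 lower (0.0985%). Genes called in both numbered 82 higher (0.577%) and 8 lower (0.0563%), and the account below rests on these. For IL4 against the same untreated wells, 410 genes were called higher (2.89%) and 132 lower (0.929%) without a covariate, and 134 genes were called higher (0.943%) and 53 lower (0.373%) in both models. The counts with IL13 depended on the wells used, and leaving out the 3 IL13 wells of plate C gave 471 higher and 97 lower without a covariate. Over all genes the median log2 difference was 0.13 without a covariate and 0.03 with plate.

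Of the 3 receptor chains that passed the filter on low values, none was called in either direction. That is near the share of all genes called (1.84% higher and 0.338% lower). Il2rg stood at 111 ± 18.1 CPM (SD, n = 9) with IL13 and 101 ± 38.4 CPM (n = 40) without. Il4ra stood at 17.1 ± 6.25 CPM with IL13 and 27.5 ± 12.6 CPM untreated, a difference of -0.59 ± 0.24 (adjusted p = 0.16). Il13ra1, the chain that IL13 needs, was low at 2.67 ± 1.49 CPM against 4.18 ± 3.64 CPM. The decoy Il13ra2 was listed at 0 in all 9 IL13 wells. With IL4, Il4ra was at 12.5 ± 2.91 CPM and Il13ra1 at 2.73 ± 1.31 CPM, and the intervals of the IL13 minus IL4 difference were -0.21 to 0.94 and -0.89 to 0.79. Stat6 itself, which carries the signal of both cytokines, was at 290 ± 64.9 CPM with IL13 and 380 ± 120 CPM untreated (adjusted p = 0.24).

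Among the 16 tested genes of JAK-STAT6 signalling and feedback, 3 were called higher in both models, and they were 3 feedback inhibitors of cytokine signalling. Socs2 rose from 6.39 ± 5.16 to 32.1 ± 8.58 CPM, and all 9 IL13 wells lay above every untreated well. Socs1 rose from a mean of 11.8 to 31.5 CPM, by 1.75 ± 0.34 (adjusted p = 0.00014), and by 2.18 with plate in the model. Cish, which is also a STAT5 target, rose from 0.207 to 1.97 CPM, by 1.34 ± 0.19. With IL4 the means were 63.3, 83.9 and 10.0 CPM for Socs2, Socs1 and Cish, and the direct difference was called for Cish only. For Socs1 it was -1.36 (95% interval -2.18 to -0.54, adjusted p = 0.75), with every IL13 well below every IL4 well of its own plate. Socs3, a feedback gene of STAT3, was called lower without a covariate (-1.35 ± 0.38, adjusted p = 0.019) but differed by only -0.33 with plate in the model (adjusted p = 0.79).

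The effector genes of alternative activation held the largest differences. Of 18 tested, 12 were called higher without a covariate and 11 in both models, against 0 lower. The median log2 difference of the list was 1.79, beside 0.13 over all genes.

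Arg1 encodes arginase 1, which turns arginine into ornithine and urea and lies on chromosome 10 (24915221 to 24927484, minus strand, GRCm38). Its level was 0 to 7.33 CPM in the untreated wells with a median of 1.56, and 49.8 to 236 CPM with IL13 with a median of 176. The groups did not overlap. The 3 IL13 wells of plate A held 173 to 179 CPM and those of plate B 182 to 236 CPM, while those of plate C held 49.8 to 98.0 CPM. The wells of plate C were the 3 lowest, and the untreated wells of that plate reached 5.97 CPM. The log2 difference was 5.80 ± 0.42 (adjusted p = 3e-31), and 4.93 ± 0.29 with plate in the model.

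Retnla encodes a secreted resistin-like protein and is among the most used markers of IL4 and IL13 action. It ran from 37.3 to 137 CPM with IL13, with a median of 60.9, and did not exceed 11.1 CPM in untreated wells. Its log2 difference was 5.14 ± 0.48 without a covariate and 3.75 ± 0.26 with plate. Fitted on the 3 pools that hold IL13 wells, with pool as a term, it was 3.67. The difference therefore shrank where untreated wells of the same plate or pool served as the reference and was called in each case.

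Other secreted or surface effectors followed. Mgl2, a galactose-binding lectin, was at 3.21 to 24.2 CPM with IL13 and at most 2.18 CPM without. Rnase2a, a ribonuclease of the eosinophil-associated family, was at 2.63 to 18.1 CPM against at most 0.852 CPM. Both stood in all 9 wells above every untreated well, though not above every well of the other stimuli, and rose by 3.26 ± 0.26 and 3.24 ± 0.15. Cdh1, or E-cadherin, which takes part in macrophage fusion, rose by 3.05 ± 0.28, and Ocstamp, a membrane protein needed for fusion into giant cells, by 2.73 ± 0.26. Their untreated wells overlapped with the lower IL13 wells, since 4 of 9 wells for Cdh1 and 7 of 9 for Ocstamp lay above every untreated well.

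Some effectors were already expressed at rest. The mannose receptor Mrc1 rose from 77.3 ± 43.5 to 263 ± 47.2 CPM, by 1.99 ± 0.44, and fibronectin (Fn1) from 57.9 ± 30.4 to 166 ± 46.3 CPM, by 1.69 ± 0.32. Within plates A, B and C the Mrc1 difference was uneven, at 0.69, 1.90 and 2.47. On plate A the lowest IL13 well (174 CPM) lay below the highest untreated well (179 CPM). The lectin Clec10a (1.92), the amino acid oxidase Il4i1 (1.88) and the interleukin 36 receptor Il1rl2 (1.25) were also called in both models. Within plates A, B and C, Clec10a differed by 1.02, 0.81 and 2.62, and Il4i1 by 2.18, 1.85 and 1.42. For Il1rl2 only 1 of 9 IL13 wells lay above every untreated well. Itgax, the integrin CD11c, rose by 1.55 ± 0.43 without a covariate but by only 0.70 with plate (adjusted p = 0.092). Chil3, a chitinase-like protein often used with Arg1 and Retnla, barely appeared. It was at 0 in all 40 untreated wells and in 4 of 9 IL13 wells, and its highest IL13 well held 2.78 CPM.

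**Figure D2:**
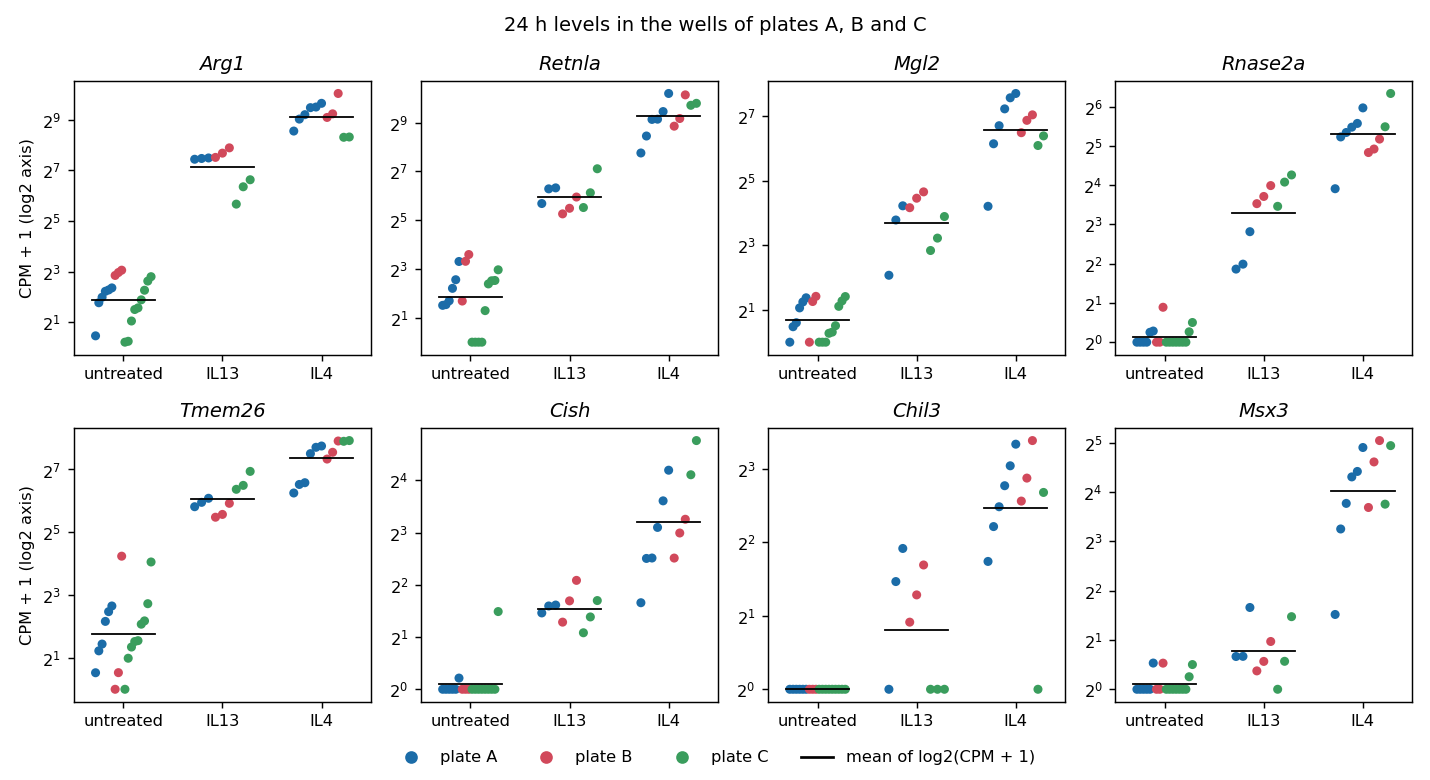
Levels (CPM + 1, log2 axis) of 8 genes in the untreated, IL13 and IL4 wells of plates A, B and C at 24 h, 1 point per well coloured by plate, with the mean of log2(CPM + 1) as a line. IL13 wells of Arg1 sit between 49.8 and 236 CPM, above all untreated wells and below all IL4 wells, whose lowest is 316 CPM.

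Genes outside the effector list were also among the largest rises. Tmem26, a transmembrane protein, rose from 3.39 ± 4.30 to 69.5 ± 24.6 CPM, by 4.45 ± 0.41. Cldn11, a claudin best known from myelin, rose from 0.104 to 13.6 CPM, by 3.37 ± 0.24, with 1 IL13 well at 0.294 CPM. Gda, guanine deaminase, rose from 15.9 ± 9.51 to 112 ± 17.97 CPM, by 3.03 ± 0.40. Il20rb, a receptor chain for the interleukin 20 family, rose by 2.96 ± 0.53. Il1rl1, the receptor for interleukin 33, also rose, by 2.77 ± 0.43.

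The promoters of these genes were searched for STAT motifs. STAT factors bind palindromes of the form TTC, a spacer and GAA, and STAT6 is known for a preference for the 4-base spacer. Of the 14 genes with the largest rises, 9 had windows in the RefSeq table (GRCm38.p6) of 300 bases, running from 250 before to 50 after a start site. TTCNNNNGAA was found in the windows of Retnla and Tmem26, which are 2 of the 14 windows of these genes, and TTCNNNGAA in none. Over all 32851 windows, 6.95% held TTCNNNNGAA and 8.3% held TTCNNNGAA, and both patterns read the same on either strand. Of the 8 named genes lower with IL13 than with IL4 (described further on), Pla2g4d and Retnla held TTCNNNNGAA, and Chil3 and Cish held TTCNNNGAA. None of the 10 windows of the 8 genes that fell with IL13 held either. The 4 windows below were chosen from those that hold a match, with the matching bases in capitals. Windows without a match are not shown. A match is a description of the letters and not a known binding site.
Retnla (chr16:48842359-48842658, plus strand): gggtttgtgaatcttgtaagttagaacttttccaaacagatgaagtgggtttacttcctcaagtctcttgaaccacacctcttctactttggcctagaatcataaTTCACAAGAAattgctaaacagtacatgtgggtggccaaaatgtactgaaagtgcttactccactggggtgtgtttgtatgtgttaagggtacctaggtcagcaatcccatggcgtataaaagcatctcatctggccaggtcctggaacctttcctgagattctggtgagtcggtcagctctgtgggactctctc
Tmem26 (chr10:68723496-68723795, plus strand): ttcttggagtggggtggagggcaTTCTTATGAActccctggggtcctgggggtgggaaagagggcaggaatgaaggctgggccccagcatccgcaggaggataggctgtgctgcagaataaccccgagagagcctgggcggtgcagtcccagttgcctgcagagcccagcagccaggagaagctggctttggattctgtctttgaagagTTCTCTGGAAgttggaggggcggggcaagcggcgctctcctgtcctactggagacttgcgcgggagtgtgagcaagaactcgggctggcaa
Pla2g4d (chr2:120289020-120289319, minus strand): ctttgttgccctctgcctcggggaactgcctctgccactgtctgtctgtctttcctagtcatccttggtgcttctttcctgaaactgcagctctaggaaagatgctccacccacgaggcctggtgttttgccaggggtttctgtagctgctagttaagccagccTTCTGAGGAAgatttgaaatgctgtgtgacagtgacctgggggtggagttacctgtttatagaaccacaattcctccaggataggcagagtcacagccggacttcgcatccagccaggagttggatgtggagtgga
Cish (chr9:107296409-107296708, plus strand): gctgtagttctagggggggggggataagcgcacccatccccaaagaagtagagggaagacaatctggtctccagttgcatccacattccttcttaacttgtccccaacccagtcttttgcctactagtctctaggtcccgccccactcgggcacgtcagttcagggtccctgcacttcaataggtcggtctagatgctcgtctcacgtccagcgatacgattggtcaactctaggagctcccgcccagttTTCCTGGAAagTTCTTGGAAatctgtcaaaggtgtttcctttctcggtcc
The match lies 145 bases before the start site in Retnla and 86 bases before it in Pla2g4d. In Tmem26 the matches begin 227 and 41 bases before the start site.

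Transcription factors linked to alternative activation rose as well. Of 15 tested, 7 were called higher without a covariate and 6 in both models, with a list median of 1.22, or 0.63 with plate. Egr2, a zinc finger factor of macrophage activation, rose from 52.1 ± 52.3 to 194 ± 92.5 CPM, by 2.49 ± 0.62 without a covariate and by 1.15 ± 0.31 with plate. Its call was lost without the IL13 wells of plate A (2.14) or plate B (2.38). Klf4 rose from 3.53 to 16.1 CPM (2.18 ± 0.36), Nfil3 from 5.11 to 20.4 CPM (2.10 ± 0.37) and Batf3 from 2.92 to 14.1 CPM (2.09 ± 0.35). Irf4, a STAT6 target that promotes alternative activation, rose from 0.691 to 5.09 CPM (1.83 ± 0.29). Ppargc1b, a coactivator of oxidative metabolism, rose by 1.67 ± 0.41, but missed the threshold with library pool in the model (adjusted p = 0.054). Myc was called only without a covariate (1.37 ± 0.37, and 0.80 with plate). Pparg was not called, at 25.9 ± 11.8 CPM with IL13 and 18.5 ± 10.3 CPM untreated.

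Of 16 genes of arginine and polyamine metabolism, 2 were called higher in both models, Arg1 and Slc7a2. Slc7a2, a transporter of cationic amino acids, rose from 55.5 ± 27.6 to 350 ± 82.8 CPM, by 2.84 ± 0.35, and all 9 IL13 wells lay above every untreated well. Odc1, which makes putrescine from ornithine, was at 34.8 ± 5.95 CPM with IL13 and 32.03 ± 9.72 CPM without (0.16 ± 0.19, adjusted p = 0.69).

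In the lipoxygenase and cyclooxygenase pathway 2 of 14 genes were called higher in both models. Ptgs1, the constitutive cyclooxygenase, rose from 36.5 ± 17.8 to 96.5 ± 43.5 CPM, by 1.51 ± 0.27. Pla2g4d, a cytosolic phospholipase A2, was at 0 to 11.6 CPM with IL13, with a mean of 2.44 CPM, and averaged 0.0399 CPM untreated. Its call (1.19 ± 0.12) was lost without replicate 6, the highest well, with a difference of 0.89, and without the IL13 wells of plate A (0.95). The prostaglandin receptor Ptger4 was called lower only without a covariate (-1.02 ± 0.31).

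Surface receptors moved in part. Clec7a, the beta-glucan receptor dectin 1, rose from 118 ± 71.8 to 373 ± 68.9 CPM, by 1.87 ± 0.29, and by 1.85 with plate. Fcgr2b, the inhibitory Fc gamma receptor, rose from 300 ± 116 to 624 ± 103 CPM, by 1.14 ± 0.25, and was the 1 of 5 Fc gamma receptor genes called. Of the 13 genes of MHC class II presentation only Cd74, the invariant chain, was called, from 0.917 ± 1.06 to 6.27 ± 3.22 CPM (1.93 ± 0.30). Among 14 scavenger and lectin receptors, Clec7a and Mrc1 were higher and Marco lower.

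**Figure D3:**
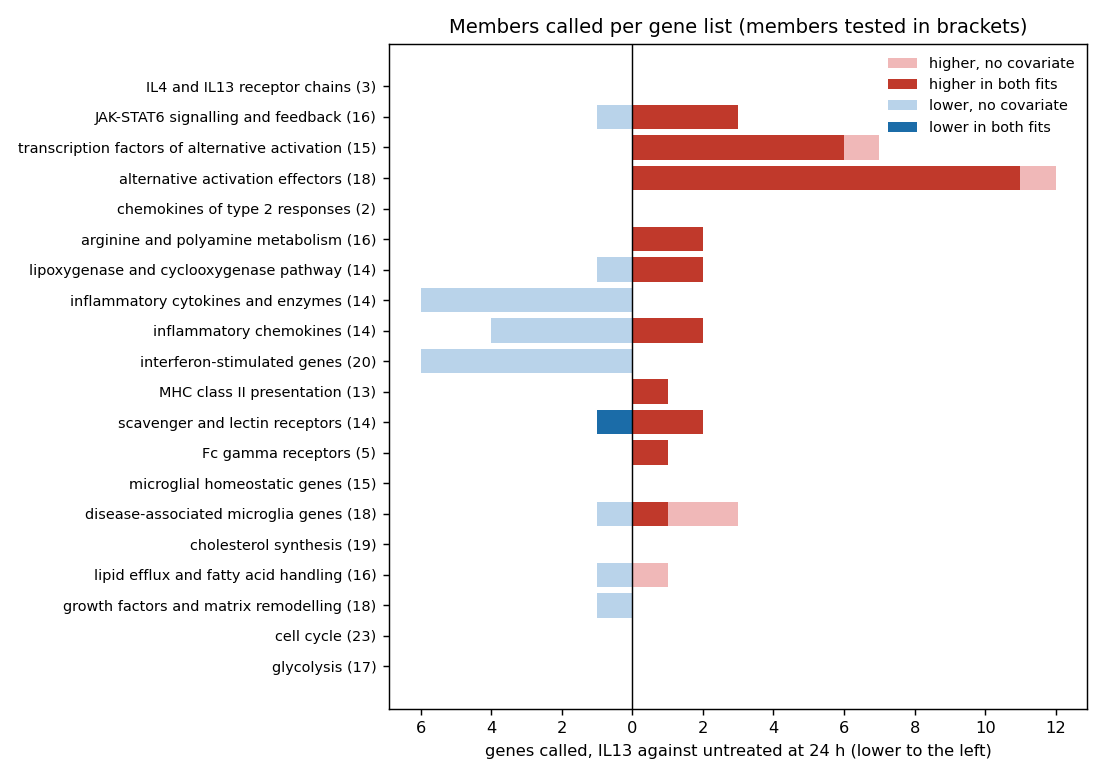
Number of genes called in each list for IL13 against untreated at 24 h, with higher genes to the right and lower genes to the left of 0 and the number tested in brackets. Pale bars count calls without a covariate and dark bars those called in both models. The effector list has 12 of 18 genes higher (11 in both), and the inflammatory cytokines and interferon-stimulated genes have 6 lower each, none of them in both.

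The 8 genes called lower in both models covered receptors, ligands and signalling proteins. Igfbp5, which binds insulin-like growth factors, fell from 24.97 ± 10.9 to 6.83 ± 3.48 CPM, by 1.74 on the log2 scale (SE 0.28). Icosl, a costimulatory ligand for T cells, stood at 3.67 ± 2.21 CPM against 16.1 ± 13.1 CPM (-1.71 ± 0.40). Fpr1, a receptor for formyl peptides, differed by -1.62 ± 0.33, the scavenger receptor Marco by -1.49 ± 0.35 and Tlr2, the receptor for bacterial lipopeptides, by -1.22 ± 0.27. Tlr2 stood at 9.50 to 23.7 CPM in the IL13 wells, all below the untreated median of 34.7 CPM, though no IL13 well lay below every untreated well. The remaining falls were the actin regulator Marcksl1 (-1.33 ± 0.38), the interferon-induced Xaf1 (-1.14 ± 0.28) and the semaphorin Sema4d (-1.04 ± 0.24).

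Without the IL13 wells of 1 plate, calls were lost for 5 of these 8 genes, and for 1 of the 14 largest rises (Egr2). The 5 were Icosl (-1.28 without plate B), Marco (-0.99 without plate C), Marcksl1 (-1.02 without plate B), Xaf1 (-0.94 without plate A and -1.14 without plate B) and Sema4d (-0.76 without plate C). Leaving out single IL13 wells also lost Marcksl1 (-1.22 and -1.23, without replicates 1 and 2) and Sema4d (-0.97 and -0.95, without replicates 8 and 9). Marco and Fpr1 both stood at -0.90 with library pool in the model. Igfbp5 and Tlr2 kept their calls in all of these settings.

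Inflammatory genes were called lower with IL13 only where plate was left out of the model. Of 14 inflammatory cytokines and enzymes, 6 were called lower without a covariate and 0 in both models. Tnf was at 19.6 to 53.1 CPM with IL13 and at 26.2 to 410 CPM untreated, with a difference of -1.60 ± 0.30 and of -0.92 ± 0.23 with plate (adjusted p = 0.0078, under the fold limit). Il1b differed by -1.76 ± 0.45 without a covariate but by -0.65 ± 0.35 with plate (adjusted p = 0.50), and Lcn2 by -2.31 ± 0.56 but by -0.70 ± 0.40 with plate. The list median was -0.94 without a covariate and -0.38 with plate. Of 20 interferon-stimulated genes, 6 were called lower without a covariate, among them Ifit1 (-1.48) and Oasl1 (-1.47), and 0 in both. Their plate values were -0.67 and -0.55. From the wells of plates A, B and C alone, the differences were -0.45, 0.40 and -0.22 for Ifit1 and -0.33, 0.22 and -0.35 for Oasl1, so both turned sign on plate B.

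Chemokines split in direction. Of 14 inflammatory chemokines, Ccl2 and Ccl7, ligands of CCR2 that draw monocytes, were called higher in both models. Ccl7 rose from 6.02 ± 4.82 to 25.4 ± 12.6 CPM, by 2.17 ± 0.45, and by 2.29 with plate. Ccl2 ran from 8.86 to 133 CPM with IL13 and differed by 1.76 ± 0.53 (adjusted p = 0.033). Without a covariate its call was lost on leaving out any 1 of replicates 1 to 6, with differences of 1.505 to 1.78, or the IL13 wells of plate A (1.23) or plate B (1.49). Ccl3, Ccl5, Cxcl1 and Cxcl2 were called lower without a covariate and in no case with plate. Of the 7 chemokines of type 2 responses only 2 passed the filter on low values, and neither was called.

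Of 15 homeostatic genes of microglia, 0 were called in either direction with limma, which is near the share of all genes called (1.84% higher and 0.338% lower). For IL4 against the same untreated wells, 4 were called lower, 3 of them in both models, beside 0.929% and 0.373% of all genes. In the direct comparison of IL13 with IL4, 0 of these 15 were called, beside 0.0845% of all genes. Of 18 genes of the disease-associated state, Clec7a was called higher in both models, and Itgax and Lgals3 only without a covariate. Apoe, the main lipid carrier of the brain, stood at 10273 ± 3356 CPM with IL13 and 23064 ± 9946 CPM untreated, with a difference of -1.10 ± 0.28, but of -0.44 ± 0.13 with plate (adjusted p = 0.051). Likewise no gene was called among 19 of cholesterol synthesis, 23 of the cell cycle or 17 of glycolysis, again near the share over all genes. The cell cycle list had a median of 0.66, or 0.31 with plate, and 6 of its 23 genes were called higher at 72 h in both models. Abcg1 and Angptl4 of lipid handling and Mmp14 of matrix remodelling were called only without a covariate.

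Some markers of other cells moved with IL13. Flt1, listed as an endothelial marker, rose from 24.6 ± 19.3 to 69.0 ± 12.5 CPM (1.74 ± 0.30, and 1.90 with plate). It was the only gene called of the 4 tested of that list, whose sum was 104 to 147 CPM with IL13 and 33.3 to 192 CPM untreated. S100a4, listed for monocytes and dendritic cells, was called without a covariate (1.29 ± 0.32) and stood at 0.96 with plate. The 8 markers of that list summed to 48.3 to 135 CPM with IL13 and 7.15 to 87.2 CPM untreated, most of it S100a4. The part of other cells in the results was not tested.

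Set directly against IL4, IL13 gave the lower level of almost every gene that differed. Only 12 of 14208 genes were called (0.0845%), 11 lower with IL13 (0.0774%) and 1 higher (0.00704%), and all 12 were called with plate in the model as well. With plate, 15 genes were called (0.106%), of which 14 were lower (0.0985%). At an unadjusted p under 0.05 there were 300 of 14208. That is fewer than the share of 0.05 expected with no difference at all. The count was 499 with plate, 518 with library pool, and 774 of 10962 within the 3 pools that hold IL13 wells. The last is above that share, so these counts do not settle whether further genes differ. This comparison needs no untreated wells, and every pool with IL13 wells held IL4 wells too.

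The 8 lower genes that met the rule for named genes, given below, were Retnla, Msx3, Mgl2, Cldn11, Pla2g4d, Rnase2a, Cish and Chil3. Retnla stood at 215 to 1173 CPM with IL4, so that the highest IL13 well (137 CPM) lay below the lowest IL4 well. The direct difference was -3.28 ± 0.59 (95% interval -4.44 to -2.12, adjusted p = 7.3e-05). Its call was lost with a pseudocount of 0.25 (-3.30, adjusted p = 0.31), while with a pseudocount of 5 those of Chil3 (-0.75) and Cish (-0.98) were lost on the fold limit. The ratio of mean levels, IL4 over IL13, was 8.62 on plate A, 15.2 on plate B and 10.3 on plate C. Mgl2 averaged 111 ± 55.6 CPM with IL4 against 13.8 ± 6.95 CPM with IL13, a difference of -2.88 ± 0.31 that was -3.23, -2.37 and -2.92 within plates A, B and C.

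Msx3, a homeobox gene, was close to absent with IL13. It was at 0 to 2.15 CPM in the IL13 wells, with a mean of 0.813 CPM, and at 1.86 to 31.9 CPM with IL4, with a mean of 18.2 CPM. The difference was -3.25 ± 0.15, and 8 of 9 IL13 wells lay below every IL4 well. Against untreated wells (0.0391 CPM) IL13 gave 0.72 ± 0.12, under the fold limit. Chil3 behaved likewise at 1.01 ± 1.09 CPM with IL13 and 5.35 ± 2.78 CPM with IL4 (-1.66 ± 0.15). The means of both genes with IL13 were thus near 1 CPM at 24 h.

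Rnase2a (-1.99 ± 0.19), Pla2g4d (-2.22 ± 0.14) and Cish (-1.66 ± 0.23) were called with IL13 against untreated wells and were lower again than with IL4. Cldn11 differed by -2.36 ± 0.29, but unevenly, with -3.71 on plate A, -2.31 on plate B and 0.13 on plate C, where the 2 IL4 wells held 2.59 and 29.4 CPM. Fitted on the 3 pools that hold IL13 wells, its call was lost (-1.70, adjusted p = 0.25). The other 3 lower genes, Gm15856 (-2.20), Pdcd1lg2 (-1.56) and Ppp1r3c (-1.38), stood under 1 CPM with IL13. The single higher gene, Nr0b2 (1.09 ± 0.21), an orphan nuclear receptor, averaged 2.31 CPM with IL13 and reached 8.94 CPM in 1 well. These 4 genes fell outside the rule for named genes and were chosen after their values were seen. The Nr0b2 call was lost without IL13 replicate 5.

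**Figure D4:**
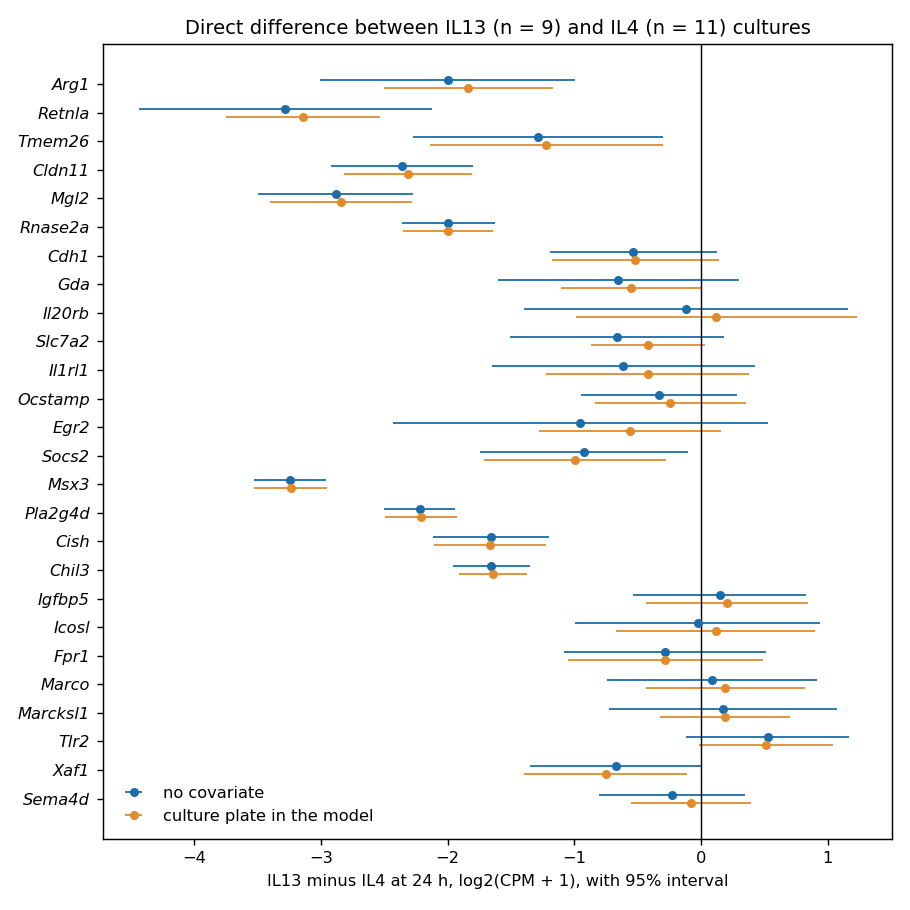
Direct difference between IL13 (n = 9) and IL4 (n = 11) wells at 24 h for the named genes, on the log2(CPM + 1) scale, with 95% intervals, from the model without a covariate and the model with culture plate. Retnla (-3.28), Msx3 (-3.25) and Mgl2 (-2.88) lie farthest below 0, and the genes that fell with IL13 lie near 0.

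Arg1 needed the plate term to pass. It stood at 316 to 1050 CPM with IL4, and all 9 IL13 wells lay below the lowest IL4 well. The difference was -2.001 ± 0.51 without a covariate (95% interval -3.01 to -0.995, adjusted p = 0.11) and -1.84 ± 0.34 with plate (adjusted p = 0.00014). Within plates A, B and C it was -1.77, -1.76 and -2.10, which is a ratio of means of 3.52, 3.53 and 4.16. Clec10a was in the same position, at -1.63 (adjusted p = 0.19) and -1.55 with plate (adjusted p = 0.013). Ccl9, a CC chemokine, differed by -0.98 ± 0.21 (adjusted p = 0.0042) and missed the fold limit narrowly, while with plate it was called at -1.002.

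For other genes of the response no difference between the cytokines was called. Of the 14 genes with the largest rises, the difference from IL4 lay between -3.28 and -0.12, with a median of -0.94, and 4 were called. The interval for Slc7a2 was -1.51 to 0.18, for Gda -1.60 to 0.30 and for Egr2 -2.44 to 0.53, so these values leave room for a level well below that with IL4. For Ptgs1 the estimate was -0.07 with an interval of -0.72 to 0.59. For Il20rb it was -0.12, with an interval of -1.40 to 1.16, and it turned to 0.12 with plate. Among the 8 genes that fell, the direct difference lay between -0.67 and 0.53, with 4 on each side of 0 and 0 called. The intervals were -0.54 to 0.83 for Igfbp5 and -0.75 to 0.92 for Marco.

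The fractalkine receptor Cx3cr1, a mark of resting microglia, went the other way, with more transcript under IL13 than under IL4. It stood at 161 to 315 CPM with IL13, 44.5 to 164 CPM with IL4 and at a median of 380 CPM untreated. The IL13 level exceeded the IL4 level on each plate, by 1.54, 1.79 and 0.89 on the log2 scale for A, B and C. Over all plates the difference was 1.48 ± 0.42 with a 95% interval of 0.66 to 2.30, but the adjusted p was 0.32, and 0.086 with plate, so that it was not called. Against untreated wells, Cx3cr1 differed by -0.44 ± 0.34 with IL13 and by -1.92 ± 0.32 with IL4.

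Among all 39 conditions at 24 h, IL13 ranked next to IL4 for most of these genes. IL4 had the highest median and IL13 the next for Arg1 (587 and 176 CPM), Retnla (575 and 60.9 CPM), Mgl2 (103 and 13.8 CPM) and Cldn11 (98.0 and 15.6 CPM). The highest median of any other condition was 15.8 CPM for Arg1 and 9.91 CPM for Retnla, both with valproic acid, and 0.489 CPM for Cldn11 with PGE2. The order of IL4 over IL13 over the rest did not overlap between wells for Arg1 and Retnla. Il20rb was highest with IL13 (61.8 CPM), next to 55.9 CPM with IL4, and the direct difference was not called. Socs2 and Cish were highest with GMCSF (218 and 24.0 CPM), a cytokine that acts through STAT5, with IL4 and IL13 next. Slc7a2 was highest with LPS_hi (1128 CPM), and IL13 ranked 4. At the lower end, IL13 had the lowest median of all 39 conditions for Xaf1 (8.75 CPM), Ifit3 (26.3 CPM) and Stat2 (29.98 CPM). The next lowest medians among conditions other than IL4 were 12.1, 28.7 and 31.9 CPM, and the order was not tested. Untreated wells differed between pools for these genes too. Their medians in the pools with IL13 or IL4 wells and in the other pools were 34.1 and 138 CPM for Ifit3, 44.0 and 110 CPM for Stat2, and 18.6 and 25.1 CPM for Xaf1, so the rank and the place of the IL13 wells cannot be told apart.

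A second set of cultures, treated for 72 h, gave another reading of the genes named at 24 h. There were 6 IL13, 3 IL4 and 25 untreated cultures, and they were fitted apart from the 24 h cultures. All of them came from lot Sciencell_May16, which held no IL13 well at 24 h, so time and cell lot cannot be told apart. Of 15119 genes, 171 were called higher (1.13%) and 64 lower (0.423%) with IL13 without a covariate, and 158 (1.05%) and 47 (0.311%) were called in both models. All 14 rises of 24 h were above 0 at 72 h and 10 were called in both models, with log2 differences of 0.59 to 8.81. All 8 falls were below 0, and 3 were called, of which only Marco (-2.64 ± 0.51) was called in both models.

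The leading effectors stood at high levels at 72 h. Retnla was at 99.6 to 1673 CPM in the IL13 wells with a median of 1283 CPM, and at 4721 to 5819 CPM with IL4. Arg1 was at 291 to 1028 CPM with IL13 and at 1719 to 2152 CPM with IL4. Chil3 had a mean of 46.7 CPM with IL13, was 0.952 CPM untreated and 1105 CPM with IL4. For these 3 genes the IL13 and IL4 wells did not overlap at 72 h, but the 2 cytokines shared no library pool at that time. All IL4 wells stood in 1 pool that held no IL13 well, and IL13 replicates 4 to 6 stood on another plate. Cytokine and library pool therefore cannot be told apart at 72 h. Untreated wells at 72 h reached 85.5 CPM for Arg1 and 31.01 CPM for Retnla. No test was made between the cytokines at 72 h, nor between the times.

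Some genes called at 24 h were not called at 72 h. Il1rl1 averaged 7.51 ± 11.3 CPM with IL13 and 2.75 ± 3.38 CPM untreated at 72 h (0.59 ± 0.51, adjusted p = 0.72). Il20rb (1.27, adjusted p = 0.47) and Socs2 (1.75, adjusted p = 0.077) were also not called. One IL13 well, replicate 4 on the right edge of its plate, stood apart with the lowest Arg1 and Retnla and with 7290 genes above 5 CPM. It was the only IL13 well of its library pool, whose untreated wells held 7364 to 7945 genes above 5 CPM. The well and its pool cannot be told apart. Without replicate 4, Gda was called (2.96, adjusted p = 0.0014, against 1.98 and 0.072 with it), Retnla rose from 8.81 to 9.43, and the calls of Igfbp5 (-2.14) and Tlr2 (-1.18) were lost.

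**Figure D5:**
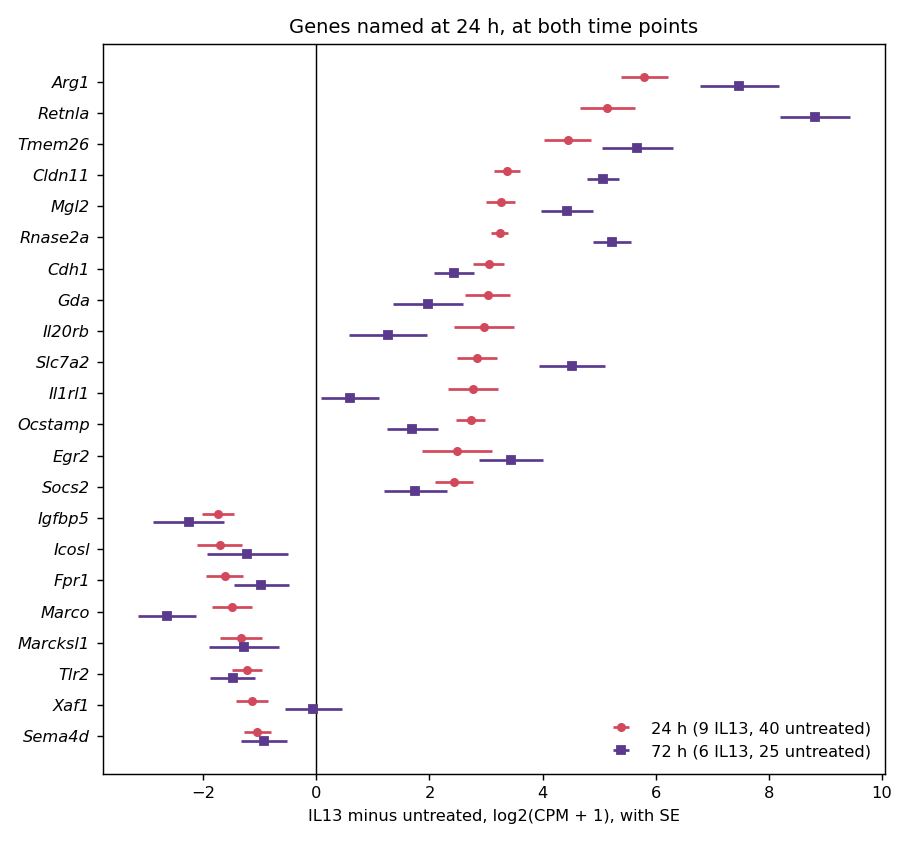
IL13 minus untreated, log2(CPM + 1) with SE, for the 14 rises and 8 falls named at 24 h, at 24 h (9 IL13, 40 untreated) and at 72 h (6 IL13, 25 untreated). Every rise stays right of 0 and every fall left of 0 at 72 h, from 8.81 for Retnla to -2.64 for Marco, while Il1rl1 is at 0.59 and Xaf1 at -0.05.

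The study grouped genes by co-expression across its conditions, and 1 of its modules, SA_salmon, holds Arg1, Retnla, Mgl2 and Rnase2a. With IL13, 22 of its 28 tested genes were called higher, 21 in both models, with a median of 1.90. With IL4, 27 were called, and 8 were called lower with IL13 than with IL4. The module was built in part from these same cultures, so its count is not independent evidence of its direction.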

How the data were processed

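The data were 3′-end RNA-seq libraries of single wells. Per the study's methods, the authors quantified transcripts with Salmon 0.7.1 against an Ensembl mouse transcriptome, and the labels name genome build mm8. The deposited culture table holds expression values per gene that sum to 996125 to 999918 per culture and are treated as CPM, normalized by the authors to each library's total. Of its 784 columns, 616 were used and 168 were not, and the in vivo table was not used here. The study's text calls the unit TPM. In some cultures only 70.2% of low values were whole reads within 0.1, so no count model was applied, and depth was estimated from the step of low values. Genes were kept if above 5 CPM in at least 4 cultures (14208 genes in 374 cultures at 24 h, 15119 genes in 242 cultures at 72 h).

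Log2(CPM + 1) values were fitted with limma 3.58.1 in R 4.3.3, with a trended empirical Bayes variance and Benjamini-Hochberg adjustment. The rule for named genes took those called in both models with a mean of at least 5 CPM in the higher group and a symbol that is no clone or gene model: the 14 largest rises and falls for IL13 against untreated wells, the 8 largest in each direction against IL4, the receptor chains and members of the gene lists. The genes and lists were chosen with earlier results of these data known. Nothing states that wells came from separate animals, so p-values measure the spread between wells. Each gene had 1 spread, estimated over the wells of all conditions in the fit. For genes near 0 in most conditions, such as Rnase2a and Msx3, SE and p-value rest largely on wells of other stimuli. They can then understate the spread among the IL13 or IL4 wells. Gene positions come from GENCODE vM21 and promoter windows from RefSeq. Alternatives covered covariates, pseudocount, filter, scaling, variance model, call rule, and the wells used. Those on single pools and on untreated wells of other pools were added after seeing the data.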

Additional observations from a re-analysis of the deposited data

Results flagged for a closer look

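Wells far from the rest of their group, by the gap to the nearest well as a share of the range, were looked for in 85 genes at 24 h and 30 genes at 72 h, and chance alone marks about 1 in 20 groups. In the 9 IL13 wells at 24 h, the lowest well stood apart for Cldn11 (0.294 CPM, on plate A) and Abcg1 (27.8 CPM), and the highest for Cxcl1 (10.5 CPM) and Ppp1r3c (3.83 CPM). In the 6 IL13 wells at 72 h, the highest well stood apart for Socs2 (54.8 CPM).

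At 72 h the lowest well stood apart for Arg1 (291 CPM), Retnla (99.6 CPM), Slc7a2 (37.2 CPM), Ccl2 (0.253 CPM), Gda (0 CPM) and Cd74 (0 CPM), and it was replicate 4 each time. This was the only IL13 well of its library pool, so well and pool cannot be told apart. The depth of replicate 4 was 3.96 M reads (M, 1000000), so it was not the shallowest well of the group. Csf1r, a defining microglial gene, was at 2513 CPM there, beside 2370 and 2790 CPM in replicates 6 and 5 and 4987 to 6630 CPM in replicates 1 to 3. The cause was not tested.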

How the results depend on the processing

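No paired analysis was possible because the replicate numbers only follow accession order and pair no wells. Counts for IL13 against untreated wells (261 higher, 48 lower) became 87 and 14 with plate, 79 and 13 with pool, 122 and 27 with a pseudocount of 5, 106 and 21 within the 3 pools that hold IL13, and 816 and 140 with untreated wells from other pools only. Without the IL13 wells of plates A, B and C they were 126, 100 and 471 higher and 23, 18 and 97 lower. Leaving out 1 well gave 165 to 338 higher and 31 to 57 lower, with 165 without replicate 3 and 31 without replicate 2. A mean filter of 5 CPM gave 136 higher, and no minimum fold 158 lower.

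Against IL4 (1 higher, 11 lower), leaving out 1 IL13 well gave 0 to 2 higher and 11 or 12 lower. Genes higher numbered 2 with a pseudocount of 5, 4 without a filter, 0 with the mean filter, 3 without plate A or plate C and 2 within the 3 pools, and the mean filter gave 1 lower. For IL4 against untreated wells (410 and 132), higher counts were 146 with plate, 137 with pool, 203 with a pseudocount of 5, 149 within the 3 pools, 989 with untreated wells of other pools and 879 with no minimum fold, and lower counts were 71 with a pseudocount of 5, 230 with the other untreated wells and 391 with no minimum fold. At 72 h (171 and 64), they were 347 and 99 with plate, 90 higher with only the compared groups, 108 higher with the mean filter, 121 to 242 higher and 20 to 81 lower without 1 well, the lowest without replicate 5 and 41 lower without replicate 6.

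Among single genes, 2744 values kept direction and call, 276 lost a call, 34 gained one and 18 turned sign, all but Socs3, Il1a and Saa3 from differences that were not called. Against untreated wells, Socs3 was 0.00068 with pool and 0.23 within the 3 pools, Il1a 0.19 and Saa3 0.20 within the 3 pools, Gpr34 0.16 without plate C and Odc1 -0.043 with pool. Against IL4, Il20rb was 0.12 with plate, 0.17 with pool, -0.19 to 0.071 without 1 well (0.071 without replicate 8), 0.29 without plate C and 0.042 within the 3 pools. Ptgs1 was -0.20 to 0.0099 without 1 well (0.0099 without replicate 5), 0.18 without plate A and 0.037 without plate B, Ocstamp 0.36 without plate C, Cd74 0.045 without plate A and Stat6 0.015 with pool. At 72 h Xaf1 was -0.35 to 0.29 without 1 well (0.29 without replicate 6). A pseudocount of 0.25 lost the call of Retnla against IL4 (-3.30, adjusted p = 0.31), and one of 5 lost those of Chil3 (-0.75), Cish (-0.98), Pdcd1lg2 (-0.63), Ppp1r3c (-0.56) and Nr0b2 (0.43). The causes were not tested.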
